A study of Homo sapiens with 4 samples.

Results

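Collagens are the main structural proteins of the extracellular matrix, and the 43 human genes described here are those whose symbol in the array annotation consists of COL, a type number, A and a chain number. They are 43 of the 19775 genes that had a probe set of their own on the array. COL17A1 had none in the array annotation and is not among them. By type, 11 encode fibrillar collagens, 6 encode the chains of type IV, the network-forming collagen of basement membranes, and 26 encode other types. Messenger RNA levels were measured in 4 established human cell lines from testicular germ cell tumours, on 1 single-colour oligonucleotide array per line. The seminoma line was TCam-2, the teratoma line NT2D1 (taken from a lung metastasis), the embryonal carcinoma line GCT27 and the yolk sac tumour line GCT44. TCam-2 was cultured in RPMI-1640 and the other 3 lines in DMEM, all with fetal bovine serum and penicillin/streptomycin. The study looked for genes silenced in the non-seminoma lines. Each subtype is represented by 1 line on 1 array, so line, subtype and, for TCam-2, culture medium cannot be told apart, and no difference between lines has a replicate error. These are levels of whole cultures, in which fewer cells of a type and less RNA per cell cannot be told apart.

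Every collagen polypeptide carries stretches of a repeat in which glycine recurs at a fixed interval, and polypeptides of matching types wind into a helical trimer. Fibrillar types assemble into the cross-linked fibrils of connective tissue, type IV forms the sheet beneath epithelia and endothelia, and the remaining types decorate fibrils, form microfibrils or networks, or span the cell membrane. In the mouse, parietal endoderm of the yolk sac, and embryonal carcinoma cells that differentiate along that path, are known for depositing type IV collagen together with laminin. Type I and type III collagen are textbook products of fibroblasts and other mesenchymal cells.

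The type IV genes are arranged in head-to-head pairs that share a stretch of DNA between their starts, and this arrangement is shown first because the paired genes are set side by side below. The annotated starts of COL4A1 and COL4A2 on chromosome 13 lay 127 bases apart on opposite strands, those of COL4A6 and COL4A5 on chromosome X 380 bases apart, and those of COL4A4 and COL4A3 on chromosome 2 419 bases apart. The RefSeq promoter windows (GRCh38.p14) run from 250 bases before to 50 bases after a start. The window of COL4A1 (chr13:110307108-110307407, minus strand) and that of COL4A2 (chr13:110307034-110307333, plus strand) overlap over 226 bases. The window of COL4A6 (chrX:108439409-108439708, minus strand) and that of COL4A5 (chrX:108439588-108439887, plus strand) overlap over 121 bases. Sequences are written 5′ to 3′ on the strand of the gene, and capitals mark CCAAT and GGGCGG or their reverse complements ATTGG and CCGCCC.
COL4A1: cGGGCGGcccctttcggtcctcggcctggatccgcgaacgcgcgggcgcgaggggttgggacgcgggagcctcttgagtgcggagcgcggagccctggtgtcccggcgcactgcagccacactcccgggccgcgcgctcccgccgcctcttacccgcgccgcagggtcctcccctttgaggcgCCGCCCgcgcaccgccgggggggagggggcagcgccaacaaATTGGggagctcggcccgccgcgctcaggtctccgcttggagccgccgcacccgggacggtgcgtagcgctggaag
COL4A2: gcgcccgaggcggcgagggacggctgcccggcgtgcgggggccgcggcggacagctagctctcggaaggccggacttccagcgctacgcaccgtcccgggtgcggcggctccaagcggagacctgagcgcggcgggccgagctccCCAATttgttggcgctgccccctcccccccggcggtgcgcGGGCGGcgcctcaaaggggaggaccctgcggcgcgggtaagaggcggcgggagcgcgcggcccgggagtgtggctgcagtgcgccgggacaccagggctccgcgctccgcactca
COL4A6: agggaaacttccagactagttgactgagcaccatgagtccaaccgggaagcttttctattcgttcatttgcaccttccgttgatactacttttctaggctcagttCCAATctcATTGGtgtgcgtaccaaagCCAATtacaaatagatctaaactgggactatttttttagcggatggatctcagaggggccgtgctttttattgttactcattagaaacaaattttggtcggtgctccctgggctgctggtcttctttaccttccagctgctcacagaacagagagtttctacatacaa
COL4A5: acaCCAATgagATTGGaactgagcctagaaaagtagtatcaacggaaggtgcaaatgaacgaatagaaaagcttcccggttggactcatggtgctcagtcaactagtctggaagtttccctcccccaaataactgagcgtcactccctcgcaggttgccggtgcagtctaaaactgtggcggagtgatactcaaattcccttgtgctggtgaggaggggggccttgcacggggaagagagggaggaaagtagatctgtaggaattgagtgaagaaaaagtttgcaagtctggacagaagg
The window of COL4A1 held 45 CpG dinucleotides and that of COL4A2 also held 45, while COL4A6 had 7 and COL4A5 had 8. The median over all 35116 windows was 14. CCAAT was present on either strand in 34.6% of all windows and GGGCGG in 44.95%, so a match in a window is a description and not a site.

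2 further windows belong to COL11A1, called in NT2D1, and COL23A1, called in TCam-2 and NT2D1, whose results are given below. They are COL11A1 (chr1:103108473-103108772, minus strand) and COL23A1 (chr5:178590344-178590643, minus strand), with the same motifs in capitals.
COL11A1: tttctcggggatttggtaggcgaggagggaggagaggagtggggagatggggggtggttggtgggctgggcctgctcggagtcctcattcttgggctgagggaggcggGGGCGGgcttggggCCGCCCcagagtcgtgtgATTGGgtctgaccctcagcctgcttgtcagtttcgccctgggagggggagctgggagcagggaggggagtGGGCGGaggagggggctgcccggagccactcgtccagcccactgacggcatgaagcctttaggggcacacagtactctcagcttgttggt
COL23A1: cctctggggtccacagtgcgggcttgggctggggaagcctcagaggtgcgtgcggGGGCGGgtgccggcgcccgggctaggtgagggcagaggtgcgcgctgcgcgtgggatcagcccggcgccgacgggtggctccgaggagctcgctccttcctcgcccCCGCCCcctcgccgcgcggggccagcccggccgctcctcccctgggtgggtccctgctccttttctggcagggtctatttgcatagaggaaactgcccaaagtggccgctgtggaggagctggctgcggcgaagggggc
COL11A1 had 12 CpG dinucleotides in its window and COL23A1 had 28. A window was found for 31 of the 43 genes. Of these, 19 had an observed over expected CpG ratio of at least 0.6, against 48.9% of all windows, 17 held GGGCGG, 8 held CCAAT and 4 held TATAAA or its reverse complement, a sequence found in 11.5% of all windows.

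Levels are the deposited intensities, in arbitrary units on a linear scale, of the probe set (a group of short probes for 1 transcript) with the highest mean over the 4 arrays. Intensities of different probe sets are not on a shared scale, so levels are compared between lines and not between genes. Values below 76.4 units, the median of all values, are not ordered and were set to that floor for fold differences, which are then lower bounds written "at least". A gene was called in a line if its value there was 4-fold or more (2 on the log2 scale) above, or below, that of every other line, a criterion of size with no error rate. Array medians lay between 73.6 and 79.3 units. The GCT44 array stood apart in its controls, with an ACTB 3'/5' signal ratio of 4.21 against 2.49 to 2.97 on the others and with spiked-in controls 0.29 from their 4-array mean (log2), against -0.26 for GCT27. The part of these array differences in the results for GCT44 was tested for the spiked-in controls alone, by scaling to them.

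The line labels were checked against marker lists. TCam-2 was higher for 4 of 6 seminoma markers, beside 1.57% of all genes, among them SOX17 with 3819 units. KIT, from the seminoma list, went the other way: TCam-2 was its lowest line, at 1144 units against 1160 to 1771 elsewhere. PRDM1 peaked in TCam-2 at 2481 units, short of the rule, since GCT44 reached 1550. GCT44 was higher for 5 of 6 yolk sac markers, beside 1.84% of all genes, among them APOA1 with 3067 units. The embryonal carcinoma markers SOX2 and DNMT3B had 20575 and 11360.0 units in NT2D1, the line labelled teratoma, and 18309 and 23760.4 units in GCT27, against at most 391 and 2840.5 in the other lines, and GDF3 was likewise highest in these 2 lines. NANOG, from the same list, had 22390.2 units in TCam-2, 22428 in GCT27 and 13322 in NT2D1, and was below the floor in GCT44. Of 13 compared markers of mesenchyme and fibroblasts, 3 of which are the collagen genes COL1A1, COL1A2 and COL3A1, 11 lay above the floor in TCam-2 and in NT2D1, 9 in GCT27 and 8 in GCT44, and the summed level was 34168 in GCT44, 30907.6 in NT2D1, 27862 in GCT27 and 27516 in TCam-2. These sums join probe sets of unlike scale and are carried largely by VIM, with 12341 to 24249 units. Over these markers the median difference of a line from the mean of the other 3 was -0.71 (log2) in TCam-2, the lowest. It was 0.18 in NT2D1, -0.07 in GCT27 and -0.06 in GCT44. The fibroblast proteoglycan gene DCN had between 69.3 and 95.6 units in all lines, and the transcription factor gene TCF21 lay below the floor in all of them. Of 6 compared endothelial markers, 4 lay above the floor in TCam-2 and in NT2D1, and 2 in GCT44 and in GCT27. TEK was higher in NT2D1, with 1713 units, beside 0.567% of all genes. KDR and PECAM1 were higher in GCT27, with 1126 and 390 units, beside 0.627%. The part of other cell types in the results below was not tested.

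Of the 43 collagen genes, 36 reached the floor in at least 1 line: 10 fibrillar, 5 of type IV and 21 of other types. The 7 others, COL4A3, COL6A5, COL6A6, COL8A2, COL11A2, COL14A1 and COL19A1, had top values between 40.6 and 73.9 units and were not compared. For COL4A3, COL8A2 and COL11A2 a dimmer probe set did reach the floor in 1 line, at up to 84.3, 92.8 and 95.2 units. Of the 36 genes, 16 (44.4%) lay above the floor in all 4 lines, against 65.6% of the 15001 genes compared in the whole series, and 7 (19.4%) did so in 1 line alone, against 12.3%.

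**Figure D1:**
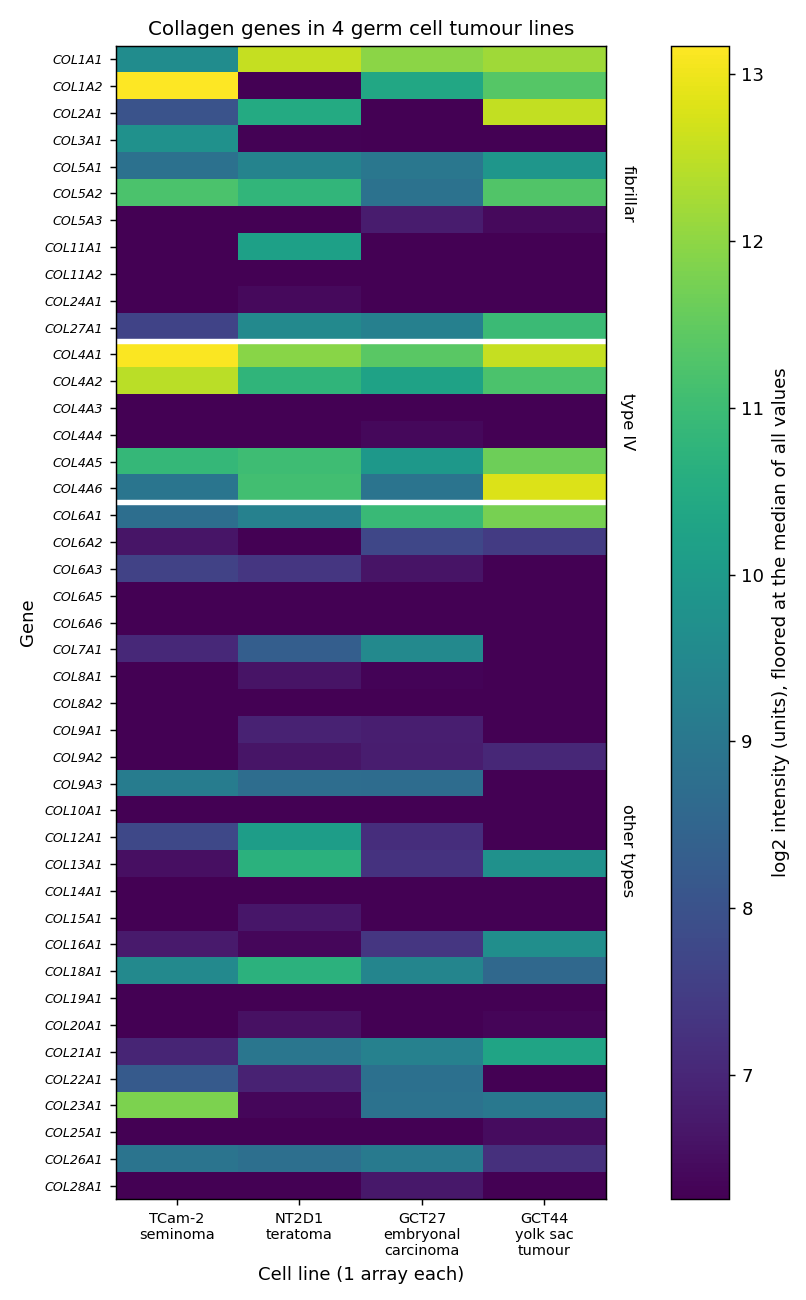
Log2 intensity of the 43 collagen genes (rows) in the 4 lines (columns, 1 array each), with values below 76.4 units set to that floor, which is the darkest colour. Colours are to be read along a row, COL1A2 is at the floor in NT2D1 only, COL11A1 is above it in NT2D1 only, and COL23A1 is brightest in TCam-2.

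The collagen genes differed strongly between the lines, and no line was the highest for most of them. In 19 of 36 the highest line lay at least 4-fold above the lowest, a share of 52.8% beside 21.1% of all genes compared. TCam-2 and GCT27 had the highest level of 7 genes each (19.4%), beside 24.67% and 24.81% of all genes. NT2D1 and GCT44 had that of 11 genes each (30.6%), beside 23.69% and 26.83%. Several of these top values lay near the floor: in NT2D1 those of COL8A1, COL9A1, COL10A1, COL15A1, COL20A1 and COL24A1 were at most 121 units. 9 genes (25%) met the 4-fold rule in at least 1 line, beside 7.43% of all genes. TCam-2 had 2 genes higher (COL3A1 and COL23A1), beside 1.57% of all genes, and 1 lower (COL1A1), beside 0.753%. NT2D1 had 2 higher (COL11A1 and COL12A1), beside 0.567% of all genes, and 2 lower (COL1A2 and COL23A1), beside 0.253%. GCT44 had 2 higher (COL2A1 and COL16A1), beside 1.84%, and 1 lower (COL9A3), beside 1.69%. GCT27 had 0 in either direction, beside 0.627% higher and 0.327% lower. Leaving out a line can only keep or raise the counts of the other lines, since a call then faces fewer lines. Without GCT44, NT2D1 had 5 collagen genes higher, beside 1.09% of all genes, and without GCT27, TCam-2 had 4 lower, beside 1.43%. Without TCam-2, GCT27 had 3 lower, beside 0.803%, and GCT44 had 2 lower, beside 2.9%. Without NT2D1, GCT44 had 4 higher, beside 2.49%, TCam-2 had 3 lower, beside 1.2%, and GCT27 had 1 higher and 1 lower, beside 1.87% and 0.888%.

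**Figure D2:**
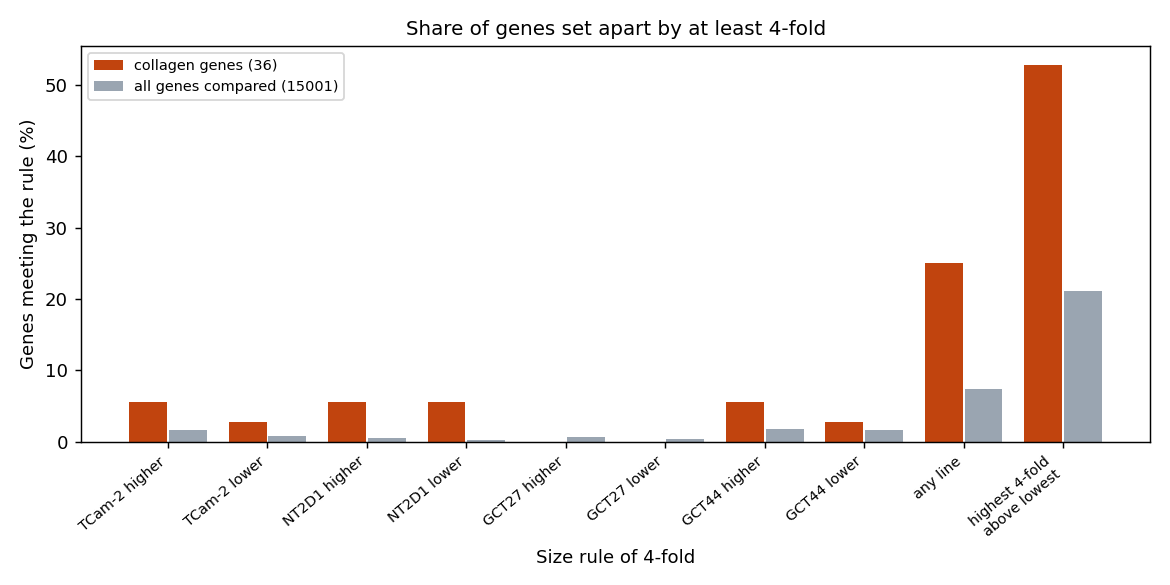
Percentage of collagen genes (left bars, 36 genes) and of all genes compared (right bars, 15001 genes) that met each size rule of 4-fold. The pair for the highest against the lowest line stands at 52.8% for collagen genes and 21.1% for all genes, and both GCT27 entries are 0 for collagen genes.

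The fibrillar genes fell into no common pattern. Median differences between a line and the mean of the other 3, over the 10 genes compared, were -0.41 on the log2 scale in TCam-2, -0.23 in GCT27, 0.20 in NT2D1 and 0.80 in GCT44, while over all genes they lay between -0.06 and -0.02. When arrays were scaled to the spiked-in controls, which moved the median of all genes to -0.31 in GCT44 and 0.29 in GCT27, the fibrillar median was 0.41 in GCT44 and turned to 0.05 in GCT27. The sign in TCam-2, NT2D1 and GCT44 was the same under each of the 3 other scalings tried. For the 21 genes of other types the medians lay between -0.14 and 0.28. With the spiked-in scaling, over the 20 then compared, they were 0.36 in GCT27, 0.26 in NT2D1, -0.22 in TCam-2 and -0.23 in GCT44.

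Type I collagen, the main fibrillar collagen of skin, bone and tendon, is built from the products of COL1A1 and COL1A2, and these genes differed between the lines in opposite ways. COL1A1 was at 792 units in TCam-2, and at 6093 in NT2D1, 4614 in GCT44 and 3982 in GCT27, and was thus 5.03-fold lower in TCam-2 than in the nearest line. COL1A2 had 61.1 units in NT2D1, below the floor, against 9209.5 in TCam-2, 2600.2 in GCT44 and 1345 in GCT27, and was at least 17.6-fold lower in NT2D1. Between TCam-2 and NT2D1, COL1A1 was 7.69-fold lower in TCam-2 and COL1A2 at least 120.5-fold higher there. In the probe sets used, NT2D1 was highest for COL1A1, by 1.32-fold over GCT44, and the 1 line in which COL1A2 was not above the floor. In GCT27 and GCT44 both genes were well above the floor, and GCT27 lay below GCT44 by 1.16-fold for COL1A1 and by 1.93-fold for COL1A2. COL1A2 in TCam-2 exceeded the next line, GCT44, by 3.54-fold, just short of the rule.

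The probe sets of these 2 genes did not all show the same size of difference. For COL1A1, no line lay below TCam-2 in any of the 4 probe sets that reached the floor, but the 3 dimmer ones, in 1 of which GCT44 was below the floor too, gave floored margins of 0.00 to -0.36 on the log2 scale, against -2.33 for the one used. NT2D1 was the highest line in 2 of the 4 COL1A1 probe sets and GCT27 in the other 2. With the median over probe sets, the COL1A1 margin was -0.33 and the call was lost. For COL1A2, a second bright probe set gave 47.9 units in NT2D1, against 8994 in TCam-2, 2414 in GCT44 and 1464 in GCT27, and its margin was -4.26. The dimmest of the 3 gave 35.4 units in NT2D1 and 86.3 in GCT27, which leaves a margin of -0.17 above the floor. NT2D1 was lowest in all 3.

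COL3A1, whose product forms fibrils with type I collagen in vessels and distensible organs, was above the floor in TCam-2 and just above it in NT2D1. TCam-2 reached 864 units, against 78.4 in NT2D1, with GCT27 at 28.6 and GCT44 at 25.5 units, an 11.03-fold difference from NT2D1. All 3 of its probe sets that reached the floor were highest in TCam-2, with 356 and 236 units in the other 2. Their margins were 2.22 and 1.63, so 1 of the 3 did not meet the rule. LUM, which encodes a proteoglycan that binds collagen fibrils, was 13.9-fold higher in TCam-2, with 3354 units there, 241 in NT2D1, 63.5 in GCT44 and 47.6 in GCT27. It thus had the same highest line as COL3A1. No second line could be named for COL3A1, since NT2D1 was below the floor in the other 2 probe sets, at 75.2 and 39.7 units. DCN, named above, had 75.0 units in TCam-2. Of the same mesenchyme and fibroblast list, COL1A2, COL3A1 and LUM were highest in TCam-2, and COL1A1, PDGFRA, VIM, TAGLN and ACTA2 were lowest there.

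COL5A1, COL5A2 and COL5A3 encode the chains of type V collagen, which nucleates type I fibrils. COL5A2 had 466 units in GCT27, against 2528 in GCT44, 2349 in TCam-2 and 1774 in NT2D1. GCT27 was 3.81-fold below the nearest line, just outside the rule, and its second probe set, at 122 units against 479 to 914, was also lowest there. COL5A1 had 943 units in GCT44, 654 in NT2D1, 509.6 in GCT27 and 454 in TCam-2, a 2.08-fold span in the probe set used. Its other 2 probe sets had wider spans with the same highest and lowest line: 1033 units in GCT44 against 195 in TCam-2, and 356 units in GCT44 with TCam-2 below the floor. COL5A3 reached 109 units in GCT27 and 86.4 in GCT44 and was below the floor in TCam-2 and NT2D1. COL3A1 and COL5A2 lie on the same chromosome, and TCam-2 was set apart for COL3A1 alone: its COL5A2 level was 1.32-fold above that of NT2D1.

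COL2A1 and COL11A1 encode collagens best known from cartilage, where type XI chains template type II fibrils. COL2A1 had 5939 units in GCT44, against 1426 in NT2D1, 260 in TCam-2 and 45.3, below the floor, in GCT27. It was 4.16-fold higher in GCT44 than in NT2D1, and its second probe set gave 972 units in GCT44 against 233 in NT2D1, the other 2 lines being below the floor. With arrays scaled to the spiked-in controls the COL2A1 margin was 1.74 in GCT44, short of the rule. Across the 4 lines the span of COL2A1 was at least 77.7-fold, with GCT44 highest and GCT27 lowest. COL11A1 was above the floor in NT2D1 alone, with 1157 units against 50.2 in GCT27, 9.21 in TCam-2 and 5.73 in GCT44, at least 15.1-fold higher. Its other 2 probe sets gave 776 and 298 units in NT2D1 and lay below the floor in the other 3 lines. The floored margin of the dimmer one was 1.96, just short of the rule. The call of COL11A1 held under each of the 15 alternative settings, several of which could not weaken it. Its margin was 3.34 with the median over probe sets and 2.20 with the floor at the 70th percentile. COL11A2, the partner chain gene, did not reach the floor in the probe set used, and a dimmer one reached 95.2 units in GCT27.

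COL27A1 and COL24A1 encode the less abundant fibrillar types that carry short helices. COL27A1 had 1996 units in GCT44, 729 in NT2D1, 614 in GCT27 and 199 in TCam-2. GCT44 was the highest by 2.74-fold and TCam-2 the lowest by 3.09-fold, and GCT44 was highest in all 4 probe sets that reached the floor. COL24A1 had 86.4 units in NT2D1 and lay below the floor in the other 3 lines, at 3.95 to 72.9 units.

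**Figure D3:**
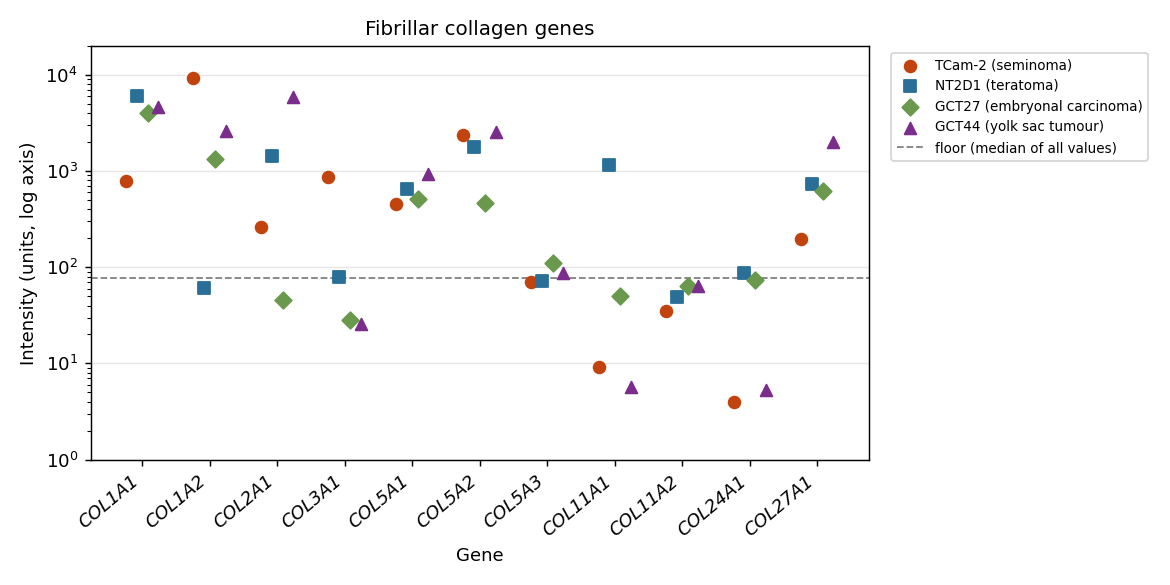
Intensity in units (log axis) of the 11 fibrillar collagen genes in each line, 1 point per array, with the floor of 76.4 units as a dashed line. COL1A1 is lowest in TCam-2 (792 units), COL1A2 is below the floor in NT2D1 (61.1 units) and COL11A1 is above it in NT2D1 only (1157 units).

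The type IV genes COL4A1, COL4A2, COL4A5 and COL4A6 were above the floor in all 4 lines, and none met the 4-fold rule in a single line. COL4A1 and COL4A2 encode the chains of the trimer found in nearly all basement membranes. COL4A1 had 8989.9 units in TCam-2, 6024 in GCT44, 3932 in NT2D1 and 2701 in GCT27. COL4A2 had 5588 units in TCam-2, 2365 in GCT44, 1744 in NT2D1 and 1216 in GCT27. Both genes, whose windows are printed above, thus had the same order of lines, TCam-2 over GCT44 over NT2D1 over GCT27, and so did the second probe set of each, although that of COL4A2 was below the floor in GCT27. TCam-2 exceeded GCT27 by 3.33-fold for COL4A1 and by 4.60-fold for COL4A2, and exceeded GCT44 by 1.49-fold and 2.36-fold. NT2D1 and GCT27 were close, with ratios of 1.46 and 1.43. That order of lines was found in 400 of the 9837 genes above the floor in all lines (4.07%). Among collagen genes only COL4A1 and COL4A2 had it. Of 8 laminin and basement membrane genes from the lists, looked at after their values had been seen, LAMB1 and LAMC1, which encode laminin chains, had it too. LAMB1 had 12538 units in TCam-2, 8419 in GCT44, 3859 in NT2D1 and 2092 in GCT27.

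COL4A5 and COL4A6 encode chains of a trimer of smooth muscle and some epithelial basement membranes, and COL4A6 had the wider span. COL4A6 had 7088 units in GCT44, against 2147 in NT2D1, 493 in TCam-2 and 481 in GCT27. GCT44 exceeded NT2D1 by 3.30-fold, short of the rule, and exceeded GCT27 by 14.8-fold. All 3 COL4A6 probe sets were highest in GCT44, with 684 and 452 units in the dimmer 2. COL4A5 had 3199.8 units in GCT44, against 2093 in NT2D1, 1862 in TCam-2 and 984 in GCT27, a 3.25-fold span. This head-to-head pair thus shared its highest line, but GCT44 exceeded TCam-2 by 14.4-fold for COL4A6 and by 1.72-fold for COL4A5. A shared second line was not shown, since NT2D1 exceeded TCam-2 by only 1.12-fold for COL4A5. In the second COL4A5 probe set GCT44 had 118 units and the other lines were below the floor. TCam-2 and GCT27 could not be ordered for COL4A6: they differed by 1.03-fold, another probe set had 91.3 units in GCT27 with TCam-2 below the floor, and in the dimmest both were below it. COL4A3 and COL4A4, which encode chains of the glomerular basement membrane, stayed at or near the floor: COL4A4 reached 84.2 units in GCT27, and COL4A3 reached at most 59.6 units in the probe set used and 84.3 in a dimmer one. GCT27 was the lowest line for COL4A1, COL4A2 and COL4A5 and level with TCam-2 for COL4A6, and the median of the 5 type IV genes compared was -1.23 on the log2 scale there, or -0.88 with the spiked-in scaling.

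**Figure D4:**
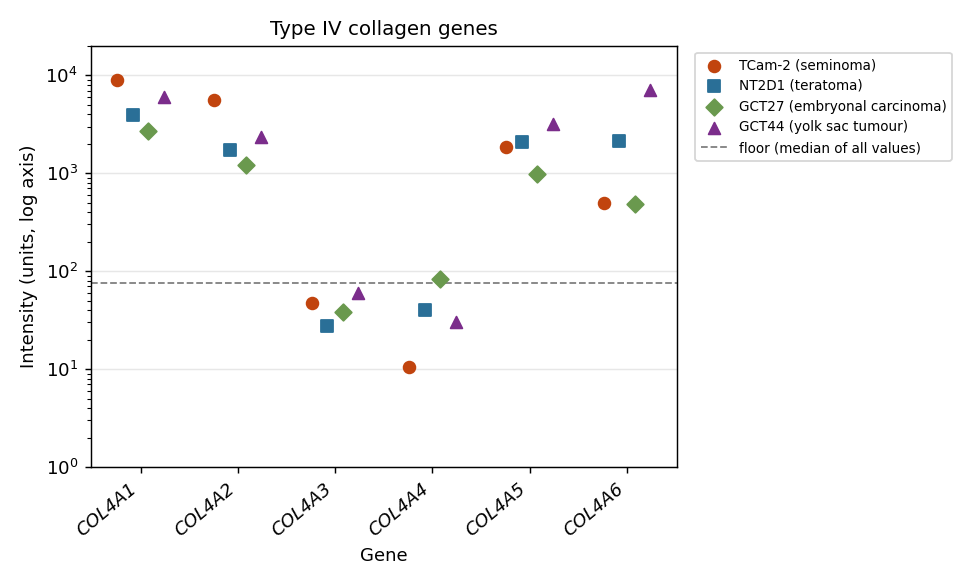
Intensity in units (log axis) of the 6 type IV collagen genes in each line, 1 point per array, with the floor of 76.4 units as a dashed line. COL4A1 and COL4A2 share their order of lines with TCam-2 on top, COL4A5 and COL4A6 are highest in GCT44, and COL4A3 and COL4A4 lie at or below 84.2 units.

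Among the collagens that span the membrane, COL23A1 had the widest span of all 36 genes that is not a bound, 42.6-fold. It had 3566 units in TCam-2, against 517 in GCT44, 463 in GCT27 and 83.7 in NT2D1. TCam-2 was 6.90-fold higher than the nearest line, and NT2D1 was 5.53-fold lower than the nearest line, so this gene was called in both. COL23A1 has a single probe set here, so most of the 15 alternative settings could not weaken its call in TCam-2. Of those that could, other scalings of the arrays gave margins of 2.70 to 2.82 (log2). With the floor at the 70th percentile the margin was 2.79. COL13A1, a transmembrane collagen of the neuromuscular junction, had 1621 units in NT2D1, 856 in GCT44, 154 in GCT27 and 92.8 in TCam-2, a 17.5-fold span in which no single line met the rule. Its other 2 probe sets were also highest in NT2D1 but had much narrower spans, with 181 and 167 units there. COL25A1, known from motor neurons, had 89.5 units in GCT44 and was below the floor in the other 3 lines.

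The fibril-associated collagens bind to the surface of fibrils and were set apart in different lines. COL12A1 had 1095 units in NT2D1, against 216 in TCam-2, 142 in GCT27 and 27.3 in GCT44, 5.08-fold higher than in TCam-2. Its probe sets disagreed: a second one was highest in TCam-2, at 303 units against 96.9 in NT2D1, and another was highest in NT2D1 at 176 units, with the other 3 lines below the floor. With the median over probe sets the COL12A1 margin was 0.34. COL16A1 had 809 units in GCT44, against 162 in GCT27, 108 in TCam-2 and 82.9 in NT2D1, 4.98-fold higher, and its margin was 1.77, short of the rule, with arrays scaled to the spiked-in controls. COL21A1 had 126 units in TCam-2, against 1247 in GCT44, 625 in GCT27 and 497 in NT2D1, so that TCam-2 was 3.93-fold lower than the nearest line and just outside the rule. COL22A1, found at tissue junctions, had 447 units in GCT27, 298 in TCam-2, 121 in NT2D1 and 28.4 in GCT44.

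COL9A3, which encodes a chain of the type IX collagen of cartilage, was the 1 gene lower in GCT44. It had 16.2 units there, below the floor, against 575 in TCam-2, 423 in NT2D1 and 414 in GCT27, at least 5.42-fold lower. It has a single probe set, and with the floor at the 70th percentile the margin was -0.72. Its partners did not share the pattern: COL9A2 was highest in GCT44, at 129 units against 68.5 to 113, and COL9A1 reached 121 units in NT2D1 and 114 in GCT27 and was below the floor in the other 2. GCT44 was thus the highest line for COL2A1 and below the floor for COL9A3 and COL11A1, 3 genes whose products share cartilage fibrils.

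**Figure D5:**
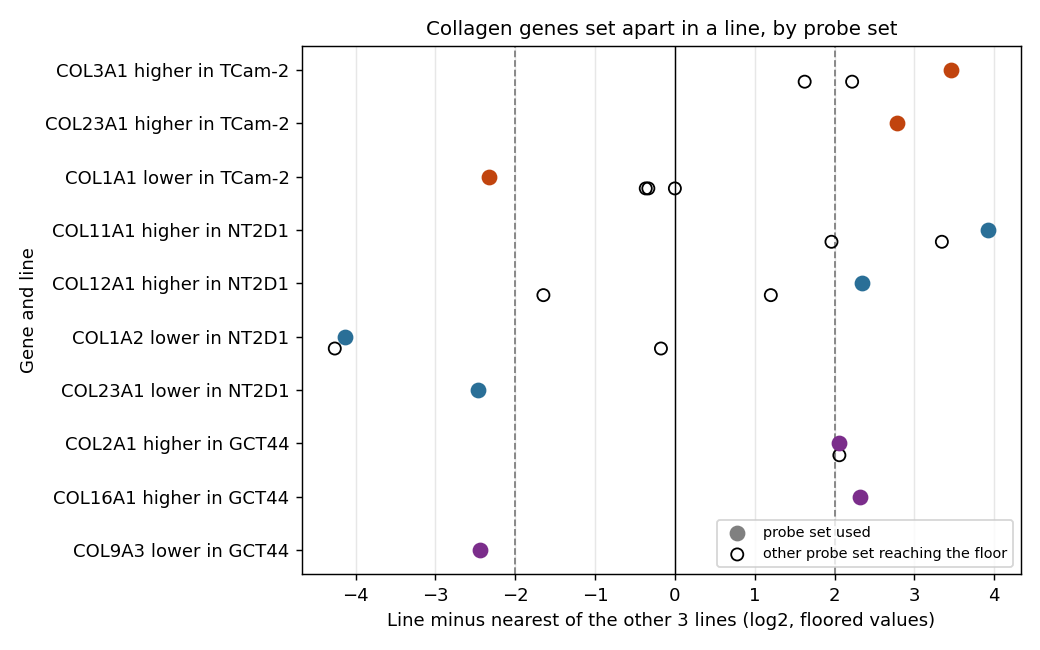
Difference on the log2 scale between the named line and the nearest of the other 3 lines, for the 10 calls made on 9 collagen genes, with the probe set used as a filled point and each other probe set that reached the floor as an open point. Dashed lines mark the rule at 2 and -2, and COL1A1, COL1A2, COL3A1, COL11A1 and COL12A1 have open points more than 1 away from the filled one, while both COL2A1 points lie just beyond the line.

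Type VI collagen forms beaded microfibrils from the products of COL6A1, COL6A2 and COL6A3. COL6A1 had 3470 units in GCT44, against 1961 in GCT27, 625 in NT2D1 and 431 in TCam-2, an 8.05-fold span. Its dimmer probe sets that reached the floor had top values of 81.4 to 150 units and floored spans of at most 0.97 (log2). The one at 81.4 units was highest in GCT27. In the one at 150 units TCam-2, with 81.7 units, lay above NT2D1, which was below the floor. COL6A2 had a narrower span of 2.75-fold, with 214 units in GCT27, 176 in GCT44, 101 in TCam-2 and 77.6 in NT2D1. For COL6A3 the order was the other way round for TCam-2 and GCT44, with GCT44 below the floor at 12.8 units, against 97.6 in GCT27, 163 in NT2D1 and 196 in TCam-2. In the probe sets used, COL6A1 and COL6A2 thus had GCT27 and GCT44 as their 2 highest lines, and COL6A3 had them as its 2 lowest. COL6A5 and COL6A6 did not reach the floor.

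COL7A1, which encodes the anchoring fibril collagen of skin, had 726 units in GCT27, 319.9 in NT2D1, 134 in TCam-2 and 55.1 in GCT44, at least a 9.50-fold span, and its second probe set was also highest in GCT27. COL18A1, the source of endostatin in basement membranes, had 1677 units in NT2D1, 722 in TCam-2, 678 in GCT27 and 386 in GCT44, and both of its probe sets shared this order. COL26A1 had 147 units in GCT44, against 442 in NT2D1, 484 in TCam-2 and 549 in GCT27, 3.001-fold below the nearest line. Of the others, COL8A1, COL10A1, COL15A1, COL20A1 and COL28A1 reached at most 104 units in any line in the probe set used, and a second COL28A1 probe set reached 115 in GCT27. Of 19 genes with more than 1 probe set reaching the floor, 15 had the same highest line in all of them, and the 4 others were COL1A1, COL1A2, COL6A1 and COL12A1.

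The lists of other genes that act on collagen were set against the same rule; their calls in GCT44 were not recomputed with the spiked-in scaling. Of 12 compared genes of extracellular maturation and cross-linking, from a list of 13, 2 were higher in GCT44, beside 1.84% of all genes, and 0 higher or lower in any other line. LOX, the lysyl oxidase that starts cross-linking of fibrils, had 6634 units in GCT44, against 222 in NT2D1, 52.8 in GCT27 and 1.43 in TCam-2, 29.9-fold higher. ADAMTS3, which removes the amino propeptide of type II procollagen, had 4016 units in GCT44, against 390 in NT2D1, 260 in GCT27 and 132 in TCam-2, 10.3-fold higher. COL2A1 and ADAMTS3 both had GCT44 as the highest and NT2D1 as the second line. The median of the list in GCT44 was nevertheless -0.47 on the log2 scale, against -0.05 for all genes.

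Of 14 compared matrix partners, from a list of 17, FMOD, FN1, LUM and THBS2 met the rule, beside 7.43% of all genes in any line. FMOD, a fibril-binding proteoglycan, was 25.5-fold higher in GCT44, with 5321 units against 208 in TCam-2, 137 in GCT27 and 133 in NT2D1. FN1, the fibronectin on which cells assemble collagen, was 7.11-fold higher in GCT44, with 29039.9 units against 4085 in NT2D1. THBS2, a thrombospondin that affects fibril shape, was at least 10.2-fold higher in NT2D1, with 779 units, the other 3 lines being below the floor. SPARC, a collagen chaperone and matrix protein, had 1876 units in GCT44 against 7191 to 13304 in the other lines and did not meet the rule. NID1, the nidogen that links type IV collagen to laminin, had 6812 units in GCT44, 3689 in GCT27, 2268 in NT2D1 and 915 in TCam-2, so its order differed from that of COL4A1.

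Among 8 compared collagen receptors, from a list of 11, DDR2 alone was set apart, beside 7.43% of all genes in any line. This receptor tyrosine kinase for fibrillar collagen had 1843 units in GCT44, against 98.6 in NT2D1, 77.0 in GCT27 and 43.6 in TCam-2, 18.7-fold higher. ITGB1, the common beta chain of the collagen-binding integrins, had between 17412 and 23662 units in the 4 lines. Of 10 compared genes of degradation, from a list of 12, MMP9 and TIMP2 met the rule, beside the same 7.43% of all genes. MMP9, a gelatinase, was 4.46-fold higher in GCT27, with 1191 units against 267 in TCam-2. TIMP2, an inhibitor of matrix metalloproteinases, was at least 22.4-fold lower in GCT44, with 11.1 units against 1713 to 3347 elsewhere. Of the 17 regulators compared, from a list of 19, 0 met the rule in any line, beside the same 7.43% of all genes, and TGFBR1, a receptor for the TGF-beta that induces collagen genes in fibroblasts, had between 4100.4 and 6774 units.

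The enzymes and chaperones that build the procollagen helix act inside the cell. Of 22 compared, from a list of 25, 0 met the rule in any line in either direction, beside 7.43% of all genes, a share too small for a count of 0 in so short a list to set it apart. Their median difference was 0.56 in GCT44, 0.06 in GCT27 and -0.13 in both TCam-2 and NT2D1 on the log2 scale. PPIB, a prolyl isomerase, had between 15440.5 and 18455 units, and the endoplasmic reticulum chaperone HSPA5 between 18501 and 21439. TMEM38B, a potassium channel needed for procollagen processing, had 11869.9 units in GCT44 against 2546 to 3207 elsewhere. Named after its values were seen, SERPINH1, the collagen-specific chaperone, had 1383 units in GCT44, against 7857 in GCT27, 5308 in TCam-2 and 3855 in NT2D1.

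Each line was also set against the other 3 with limma, whose spread was that among these 3, labelled with a subtype each, and was taken to hold for the single line as well. In limma, 0 of 36 collagen genes passed an adjusted p of 0.05 in any of the 4 contrasts. Over all 15001 genes, 77 (0.513%) passed in GCT44 and 0 (0%) in the other contrasts. At an unadjusted p under 0.05, limma counted 8 collagen genes in GCT44 beside 9.93% of all genes, 7 in TCam-2 beside 5.99%, 2 in GCT27 beside 2.99% and 2 in NT2D1 beside 2.95%. COL9A3 in GCT44 came closest in limma, with -4.84 on the log2 scale (SE 0.60, adjusted p 0.0567), but its GCT44 value lies below the floor and the size is therefore not measured. In TCam-2, limma gave COL1A1 -2.61 on the log2 scale (SE 0.47, adjusted p 0.512) and COL3A1 4.49 (SE 1.01, adjusted p 0.636). The COL3A1 size rests on values below the floor in GCT27 and GCT44, and with the floor the difference was 3.49.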

How the data were processed

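Total RNA from the 4 lines was prepared with column kits and hybridized with biotin label to Affymetrix U133 Plus arrays, per the labels' protocols. The authors deposited 1 linear intensity per probe set. After removal of 2% of values at either end, every array had a mean of 500.1. The submitters' processing notes name RMA without a version, which usually ends in log2 values, so how the deposited intensity values were reached is not given in the sources used here, and log2 was taken from them. Of 54675 probe sets, 41097 carried 1 gene symbol in the array annotation, 1801 carried several and 11777 were unlisted. The brightest single-gene probe set stood for each of 19775 genes, and 15001 genes whose highest value reached the floor were compared.

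The members, types, gene lists and the floor were chosen with earlier results of these data known. By the rule for naming, the text names collagen genes that met the size rule, their chain partners and head-to-head neighbours, COL1A1, COL1A2 and COL3A1, the highest and lowest of each type, and list genes that met the rule or were among the 4 highest of a list. Further collagen genes were named after their values were seen, so that all 43 are accounted for. limma (version 3.58.1, in R 4.3.3) used log2 values without the floor, an intensity trend and 2 residual degrees of freedom, with Benjamini-Hochberg adjustment over all genes compared. Scripts ran in Python 3.11.15 with pandas 2.3.3 and were tested on simulated data. Precision is limited by there being 1 array per line. The alternatives were other floors, probe set choices, scalings and thresholds, and each line left out. Coordinates are those of the RefSeq promoter table, since the build behind the array annotation is not given in the sources used here.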

Additional observations from a re-analysis of the deposited data

How the results depend on the processing

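Of 147 margins of the 10 calls under alternatives, 137 stayed past the rule, 10 fell short and 0 changed direction. Many of these outcomes were fixed in advance, so the tally does not measure how robust the calls are. Leaving out a line, lowering or removing the floor, or averaging over the other lines can only keep or widen a margin. Dropping the filter on low values leaves it unchanged, and the lower threshold only eases the rule. Only other probe set choices, other scalings and the higher floor could weaken a call. COL3A1, COL1A1 and COL9A3 are outside this tally in 1 setting each, since no probe set without suffix _s_at or _x_at reached the floor, and their calls were lost there. With a gene's median probe set value, COL3A1 was at 1.63, COL1A1 at -0.33 and COL12A1 at 0.34 on the log2 scale. TCam-2 then had 1 higher and 0 lower and NT2D1 1 higher, beside 1.35%, 0.576% and 0.43% of all genes. Without probe sets that carry suffix _s_at or _x_at, which may match several transcripts, COL1A2 was at -0.17. TCam-2 then had 1 higher and 0 lower, NT2D1 1 lower and GCT44 0 lower, beside 1.5%, 0.694%, 0.215% and 1.42% of all genes. Any line had 5, beside 7.04%, and the count with the highest line 4-fold above the lowest was 12, beside 20.7%. With the floor at the 70th percentile (252.1 units), COL3A1 was at 1.78, COL16A1 at 1.68, COL9A3 at -0.72 and COL23A1 in NT2D1 at -0.88. TCam-2 then had 1 higher, NT2D1 1 lower and GCT44 1 higher and 0 lower, beside 1.35%, 0.202%, 1.43% and 0.892% of all genes. With no floor, 3 were lower in TCam-2, 1 in GCT27 and 6 in GCT44, and 15 were set apart in any line, beside 2.32%, 1.35%, 5.11% and 15.5% of all genes, while a floor at 38.2 units gave 1 lower in GCT27, beside 0.507%. Scaling to the spiked-in controls left COL2A1 at 1.74, COL16A1 at 1.77 and 0 higher in GCT44, beside 1.34% of all genes. A threshold of 1 on the log2 scale gave 4 higher and 3 lower in TCam-2, beside 4.77% and 3.14% of all genes. It gave 1 higher and 2 lower in GCT27, beside 3.25% and 1.88%, and 4 higher and 2 lower in GCT44, beside 5.03% and 4.57%. In any line it gave 17, beside 25% of all genes. Against the mean of the other lines, there were 4 lower in TCam-2, beside 2.45%, and 1 higher and 3 lower in GCT27, beside 2.61% and 1.41%. There were 5 higher and 3 lower in GCT44, beside 3.29% and 4.17%, and 16 in any line, beside 13.8%. Where no value is given, the cause of a change was not tested.

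Leaving out 1 line at a time, which can only keep or raise these counts, gave 2 to 3 genes higher and 1 to 4 lower in TCam-2. It gave 2 to 5 higher and 2 lower in NT2D1, 0 to 1 higher and 0 to 3 lower in GCT27, and 2 to 4 higher and 1 to 2 lower in GCT44. Of all genes, these rules took in 2.19% to 2.61% and 1.2% to 1.9% in TCam-2, and 0.947% to 1.92% and 0.624% to 0.886% in NT2D1. They took in 1.06% to 1.87% and 0.651% to 0.888% in GCT27, and 2.32% to 2.55% and 2.28% to 2.9% in GCT44. Leaving a line out gave 14 to 16 collagen genes with the highest line 4-fold above the lowest, beside 13.9% to 17.4% of all genes. It gave 9 to 12 in any line, beside 7.62% to 10.8%. limma called 0 collagen genes under all 20 alternatives tried for it. Choosing the probe set by mean log2 value was an alternative added after the data were seen. No paired analysis was possible because each line has 1 array. Line, subtype and medium cannot be told apart, intensities near the floor cannot be ordered, and every value rests on 1 array.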
